A study of Homo sapiens with 17 samples.

Results

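Solute carriers are membrane proteins that move amino acids, sugars, lactate, ions and metals into and out of cells. The mRNAs described here are those of 13 SLC families whose members work mainly at the plasma membrane. They were chosen by gene symbol alone (SLC1, SLC2, SLC3, SLC4, SLC5, SLC6, SLC7, SLC9, SLC12, SLC16, SLC38, SLC39 and SLC43), which gave 127 of the 19222 genes in the 1 h table. Of these, 81 had enough reads for a test of level and 63 for an estimate of the fraction new, which is the share of a gene's reads that come from RNA made during labeling. The other 46 had at most 100 reads over 6 libraries, and the highest untreated mean among them was 0.457 CPM (counts per 1000000 gene reads). SLC5A7, a choline transporter, and SLC12A1, a sodium, potassium and chloride cotransporter, had 0 reads in all 6 libraries, where 3 reads correspond to 0.0750 to 0.135 CPM.

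HEK-293T cells, a transformed human embryonic kidney line, were left untreated or given 1.8 µM emetine, which blocks translation elongation, for 1 h. Both groups received 500 µM 4-thiouridine (s4U), a uridine analog that enters new RNA and is read as T-to-C conversions in TL-seq, and each group held 3 libraries. A further untreated library and a further emetine library of 1 h had no s4U. Groups at 2 h (untreated, 1.8 µM or 240 µM emetine, all with 250 µM s4U, 3 libraries each) enter here only through the authors' mean over all of those libraries, so low and high doses are not compared. No source used here says whether the 3 libraries of a group came from separate cultures, and p-values then measure the spread between these libraries, which may be technical.

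The 6 s4U libraries of 1 h held 22246279 to 40018063 reads on genes. All 8 markers listed for HEK-293T were over 1 CPM in every library, and their summed level was 956 to 1082 CPM in untreated and 792 to 944 CPM in emetine libraries. Of 11 markers of blood, liver, muscle, fibroblasts and endothelium, 1 was over 1 CPM in every library and 3 were at 0, with a summed level of 3.87 to 4.70 CPM in untreated and 2.25 to 4.00 CPM in emetine libraries. Emetine replicate 3 stood apart. Its genes deviated from their group mean with an SD of 0.278 on the log2 scale, against 0.112 to 0.170 in the other 5 libraries, and the deviations tracked transcript length (Spearman rho 0.737 over 11409 genes, against -0.649 and -0.650 in emetine replicates 1 and 2, which share that group mean). Where a member's log2 fold change of level is given, it is given with and without this library, and its part in the results was not tested.

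Solute carriers share the job of crossing the membrane but differ in what drives them. Some amino acid carriers of the SLC7 family, among them SLC7A5 and SLC7A8, pair with the heavy chain SLC3A2, which brings them to the cell surface. Many amino acid carriers are known targets of ATF4, the transcription factor of the amino acid and integrated stress responses. Glucose carriers of the SLC2 family, monocarboxylate carriers of the SLC16 family and zinc importers of the SLC39 family let cells take up fuel, export lactate and acquire metal. The SLC4, SLC9 and SLC12 families set intracellular pH and chloride.

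Among amino acid carriers, SLC1A5, the sodium-dependent glutamine transporter, had the highest level of all members per transcript length, at 184 CPM per kb in untreated cells, followed by SLC3A2 at 145 CPM per kb. SLC7A5, the large neutral amino acid transporter LAT1 and a light chain partner of SLC3A2, stood at 76.7 CPM per kb. Of the metal carriers, SLC39A1 (ZIP1), a zinc importer of the plasma membrane, stood at 115 CPM per kb and SLC39A7, which releases zinc from the secretory pathway, at 74.8 CPM per kb. SLC16A1 (MCT1), which carries lactate and pyruvate with a proton, stood at 94.1 CPM per kb. SLC6A8, the creatine transporter, had 66.4 CPM per kb and SLC5A6, the sodium-dependent multivitamin transporter, 61.2 CPM per kb. Per kb, the leading glucose carrier was SLC2A1 (GLUT1) at 29.0 CPM, and the leading anion exchanger was SLC4A2 at 51.5 CPM. These per-kb levels are means of 3 untreated libraries divided by the length of 1 annotated transcript per gene.

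A few members carried most of the reads of their class. SLC6A8 took 97.6% of the summed CPM of the 9 carriers of amines, GABA and creatine, and SLC16A1 took 77.8% of that of the 13 SLC16 members. In the amino acid class of 40, SLC1A5 took 25.4%, and in the 14 SLC39 members SLC39A1 took 24.4%. The 127 members together summed to 4617, 4754 and 4713 CPM in the 3 untreated libraries and to 4257, 4346 and 4677 CPM in the 3 emetine libraries. Emetine replicates 1 and 2 lay below every untreated library in that sum, while replicate 3 lay within the untreated range. In all, 48 members had an untreated mean under 1 CPM and 13 had one over 100 CPM. The tested members were longer than the genes tested as a whole, with a median transcript of 4128 bases against 3330 and a median coding length of 1746 bases against 1437. The wobble positions of their codons held more G and C (median 69.2% against 59.6%).

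**Figure D1:**
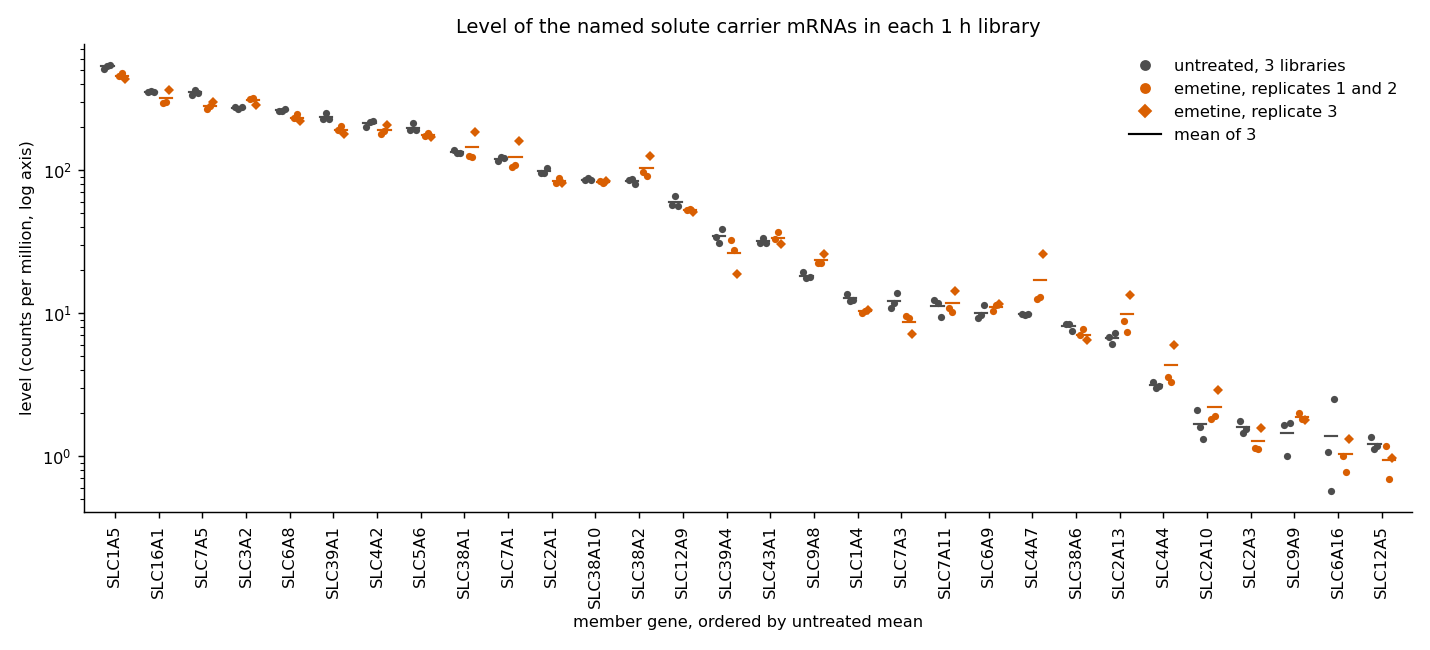
Level in CPM (log axis) of 30 named members in each of the 6 s4U libraries of 1 h, with gray points for untreated, orange circles for emetine replicates 1 and 2, an orange diamond for emetine replicate 3 and a bar for the mean of 3. SLC4A7, SLC2A13, SLC7A1 and SLC38A1 have their highest point in emetine replicate 3, while SLC39A4 and SLC7A3 have their lowest there.

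The half-life of each mRNA in untreated cells was computed from the fraction new after 1 h of s4U, which assumes a steady level. No correction was made for dilution by cell growth, which matters most for the longest values. Over the 63 members the median half-life was 6.04 h, and over all 10763 genes estimated it was 5.35 h. The 3 untreated libraries gave medians of 7.61, 5.90 and 5.07 h for the members and 7.13, 5.26 and 4.36 h for all genes, so the members were longer-lived at the median in each library, by less than the libraries differed from each other. In the libraries without s4U, the highest apparent new share of any of these members was 0.633%. The shortest half-life was 1.52 h, and half-lives were under 2 h for 3 members and under 4 h for 16.

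The shortest-lived member was SLC38A2 (SNAT2; chr12:46358188-46372773, hg38), a sodium-coupled carrier of small neutral amino acids that cells raise on amino acid shortage. Its fraction new in untreated cells was 26.5, 37.8 and 45.8%, which gave a half-life of 1.52 h (1.13 to 2.25 h over the 3 libraries). SLC3A2 (chr11:62856004-62888880) had 28.2, 36.3 and 42.8% new reads and a half-life of 1.57 h (1.24 to 2.09 h). These 2 ranges overlap almost entirely, so their order is not set by these libraries. SLC9A8, a sodium and proton exchanger, followed at 1.91 h (1.72 to 2.02 h), and SLC4A7 (NBCn1; chr3:27372721-27484420), a sodium bicarbonate cotransporter, at 2.35 h (1.87 to 2.80 h). SLC2A1 had a half-life of 2.40 h (1.97 to 3.08 h), and its range overlaps that of SLC4A7.

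At the other end, SLC7A3, a cationic amino acid transporter, had 4.54, 1.43 and 3.37% new reads and a half-life of 21.9 h (14.9 to 48.2 h). SLC38A6 had 20.6 h (11.6 to 69.2 h), SLC38A10 16.4 h (13.98 to 22.8 h) and SLC4A2 14.5 h (10.1 to 25.7 h). These 4 ranges overlap, and at fractions new this low a small absolute error makes a large change in half-life. None of these 4 members overlapped any of the 5 shortest-lived ones in this range. On the genome, SLC38A6 (1417 reads over 6 libraries) overlaps TRMT5 (8654 reads) on the opposite strand, and SLC4A2 (37049 reads) overlaps CDK5 (12170 reads). As the strand setting of the counting is not given, their values may include reads of these genes.

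Families were mixed rather than uniform in half-life. SLC38 held both the shortest-lived member and SLC38A6 at 20.6 h, with a family median of 8.15 h over 7 members. In SLC7, SLC7A1, the main cationic amino acid transporter, had a half-life of 3.46 h (2.90 to 4.61 h), SLC7A5 6.10 h (5.63 to 7.02 h) and SLC7A3 21.9 h. SLC3A2 and SLC7A5, which form 1 heterodimer, did not overlap in half-life. By substrate, the 11 metal carriers had a median of 8.995 h and a range of 4.05 to 10.8 h, and the 13 carriers of bicarbonate, protons and chloride a median of 4.67 h and a range of 1.91 to 14.5 h. The 24 amino acid carriers had a median of 5.73 h, the 8 carriers of sugars and sodium-coupled solutes 6.21 h, and the 6 SLC16 members 6.71 h. The SLC9 family, sodium and proton exchangers, had a median of 3.27 h over 5 members. Across the 63 members, half-life and the length of the 3′ UTR had a Spearman rho of -0.30, against -0.30 over 9885 genes, and half-life and the number of ATTTA motifs in the 3′ UTR (this strand only) had -0.17 against -0.27. These are descriptions across genes, which are not independent replicates and share the libraries.

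**Figure D2:**
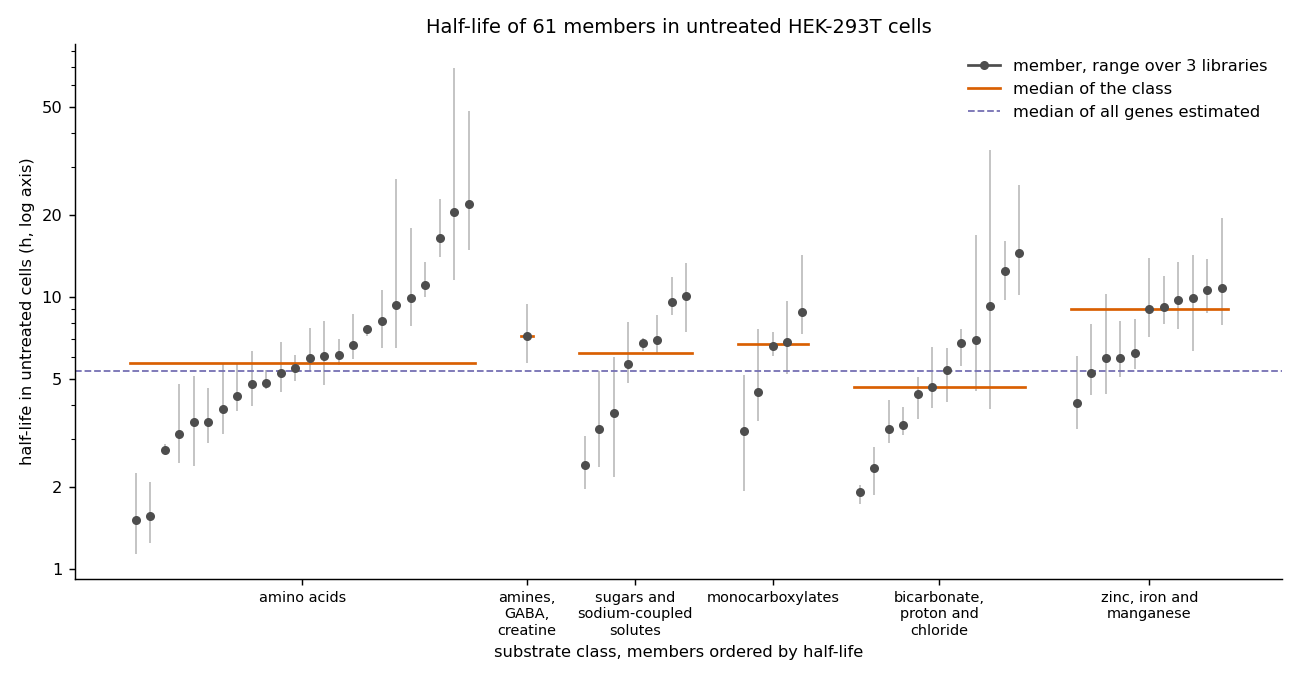
Half-life in hours (log axis) of 61 members in untreated cells by substrate class, with a point for the value from the mean fraction new, a gray line for the range over 3 libraries, an orange line for the median of the class and a dashed line for the median of all genes estimated, 5.35 h. Members of every class with more than 1 member lie on both sides of the dashed line, and the metal carriers lie mostly above it.

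The comparison of emetine with untreated cells asks whether blocking elongation for 1 h changes the level of these mRNAs. By edgeR's quasi-likelihood test, 0 of the 81 tested members passed an adjusted p of 0.05 in either direction, where 2.64% of all 13776 genes tested were called higher and 0.0436% lower. At an unadjusted p under 0.05, 5 members were higher and 10 lower. The shares of all genes at that threshold were not computed, so these counts have no background to be read against. Log2 fold changes ran from -0.49 to 0.79, with 39 above 0 and 42 below 0 and a median of -0.018, against 0.030 over all genes. Over all genes, 46.0% lay below 0. All 3 emetine libraries lay above all 3 untreated ones for 9 members and below them for 19, against 19.5% and 15.2% of all genes tested, and the groups overlapped for the other 53. On data simulated from these libraries the test recovered 63% of genes changed by 0.7 on the log2 scale and 98% of those changed by 1.5, so changes as small as most of those seen here would often have been missed.

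Without emetine replicate 3, 11 of 80 members passed the same test, where 10.1% of all genes were called higher and 3.87% lower. The 3 higher ones were SLC3A2, SLC4A7 and SLC9A8. Among the 8 lower ones were SLC2A1, SLC4A2, SLC7A5, SLC7A8, SLC16A1, SLC39A1 and SLC39A6. Removing from each library a trend on transcript length and GC content, with all 6 libraries kept, gave SLC3A2 as higher and 14 members as lower, where 5.87% of all genes were called higher and 4.77% lower. This trend was fitted to deviations from the mean of all 6 libraries, so any such trend between the groups was removed too. Among the 14 were SLC1A4, SLC1A5, SLC2A1, SLC4A2, SLC7A3, SLC7A5 and SLC16A1, and, outside the rule for named genes, SLC6A15, SLC7A8, SLC16A9, SLC39A6 and SLC39A8. DESeq2 called SLC4A7 higher and SLC7A3, SLC7A5 and SLC39A1 lower, where it called 5.95% of all genes higher and 1.13% lower. SLC7A5 was the 1 member called lower in all 3 of these settings, and no member was called in opposite directions. Calls of single members thus depend on the setting. With emetine replicate 3 left out, 25 estimates lay above 0 and 55 below, and 16 turned from above to below 0 while 3 turned the other way. The share of all genes below 0 in that setting was not computed, which also limits the counts by class given below. SLC7A8 and the other members outside the rule for named genes were named after their calls were seen.

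**Figure D3:**
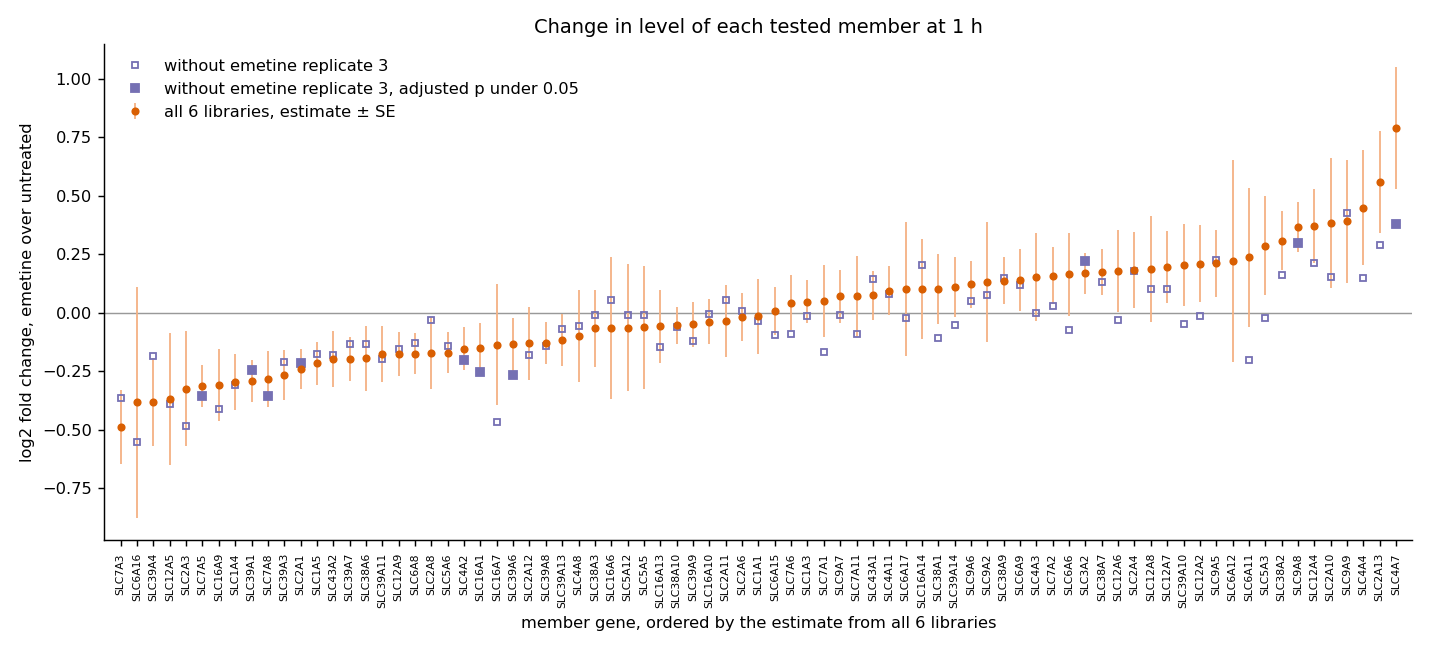
Log2 fold change of level, emetine over untreated, for 79 of the tested members ordered by the estimate from all 6 libraries, with orange points and lines for the estimate and its SE, open squares for the estimate without emetine replicate 3 and filled squares where that estimate had an adjusted p under 0.05. With all 6 libraries none of them passed the test, and the largest estimates, 0.79 for SLC4A7 and 0.56 for SLC2A13, came to 0.38 and 0.29 without the library.

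Amino acid carriers made up 25 of the tested members, with 15 estimates above 0 and 10 below and a median of 0.047. With that library left out, 7 lay above 0 and 18 below, and the median was -0.076. SLC7A5 (chr16:87830023-87869507) stood at 337, 364 and 347 CPM in untreated and at 266, 278 and 299 CPM in emetine libraries. Every emetine library lay below every untreated one, and the log2 fold change was -0.31 (SE 0.09, edgeR adjusted p = 0.117), the smallest adjusted p of any member. Without emetine replicate 3 it was -0.36 (SE 0.06, edgeR adjusted p = 0.00127), with the trend removed -0.40 (edgeR adjusted p = 0.00272) and by DESeq2 -0.34 (DESeq2 adjusted p = 0.00764). SLC3A2 stood at 278, 267 and 275 CPM in untreated and at 315, 320 and 285 CPM in emetine libraries. Every emetine library lay above every untreated one, with a log2 fold change of 0.17 (SE 0.09, edgeR adjusted p = 0.284) and, without emetine replicate 3, 0.22 (SE 0.05, edgeR adjusted p = 0.0163). With the trend removed it was 0.27 (edgeR adjusted p = 0.0269), and by DESeq2 0.14 (DESeq2 adjusted p = 0.296).

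On the CPM scale the mRNAs of this heterodimer thus leaned opposite ways, but when scaled to spike-in reads both estimates lay above 0. Their ratio within a library does not depend on scaling and shows only their change relative to each other. The transcripts differ in length, at 1885 bases for SLC3A2 and 4556 for SLC7A5, and the part of the length trend in the ratio was not tested. SLC3A2 over SLC7A5 in CPM was 0.825, 0.733 and 0.792 in untreated libraries and 1.18, 1.15 and 0.955 in emetine libraries. The means were 0.783 ± 0.046 and 1.10 ± 0.12 (SD, n = 3 each), a log2 difference of 0.48, and the groups did not overlap. The exact two-sided permutation test gave p = 0.1, the smallest that 3 against 3 libraries allow. This ratio was chosen after its values were seen. Reads that the pseudogenes SLC7A5P1 and SLC7A5P2 share with SLC7A5 cannot be told apart here, but both were low, at 0.211 and 0.728 CPM in untreated cells.

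SLC1A5 stood at 511, 537 and 539 CPM in untreated and at 454, 479 and 433 CPM in emetine libraries, and the groups did not overlap (log2 fold change -0.22, SE 0.09, edgeR adjusted p = 0.217). It was -0.18 without emetine replicate 3 (edgeR adjusted p = 0.0570) and -0.22 with the trend removed (edgeR adjusted p = 0.0303). SLC1A4, which carries alanine, serine and cysteine, had 13.7, 12.1 and 12.3 CPM against 10.1, 10.4 and 10.6 CPM, again without overlap (-0.30, SE 0.12, edgeR adjusted p = 0.204). It was -0.31 without emetine replicate 3 (edgeR adjusted p = 0.0809) and -0.40 with the trend removed (edgeR adjusted p = 0.0426). SLC7A3 had the largest estimate below 0, at 10.9, 11.9 and 13.9 CPM against 9.59, 9.24 and 7.17 CPM (-0.49, SE 0.16, edgeR adjusted p = 0.151). The groups did not overlap, and the lowest value was that of emetine replicate 3, without which the estimate was -0.37 (edgeR adjusted p = 0.0617). With the trend removed it was -0.46 (edgeR adjusted p = 0.0450), and by DESeq2 -0.51 (DESeq2 adjusted p = 0.0481). SLC38A2 stood at 85.5, 87.2 and 79.2 CPM against 97.1, 90.3 and 125 CPM, all emetine libraries being higher, with a log2 fold change of 0.31 (SE 0.13, edgeR adjusted p = 0.209) and 0.16 without emetine replicate 3. SLC7A8 (LAT2), a light chain partner of SLC3A2, had 19.4, 18.1 and 18.5 CPM against 15.5, 13.5 and 16.96 CPM, without overlap (-0.28, SE 0.12, edgeR adjusted p = 0.218). It was -0.36 without emetine replicate 3 (edgeR adjusted p = 0.0293) and -0.38 with the trend removed (edgeR adjusted p = 0.0363).

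Without that library, 8 of the 25 amino acid carriers turned from above to below 0 and 0 the other way. Of these 8, 3 were named by the rule. SLC7A1 had 117, 122 and 121 CPM in untreated and 105, 108 and 159 CPM in emetine libraries, so that its estimate was 0.05 with all libraries and -0.17 without emetine replicate 3. SLC38A1, a glutamine carrier, had 138, 133 and 132 CPM against 126, 122 and 184 CPM, with estimates of 0.10 and -0.11. SLC7A11 (xCT), the cystine and glutamate exchanger, had 12.4, 11.7 and 9.39 CPM against 10.8, 10.2 and 14.3 CPM, with estimates of 0.07 and -0.09. The other 5, SLC1A3, SLC6A6, SLC6A15, SLC6A17 and SLC7A6, were named after their values were seen, and the 8 transcripts ran from 3919 to 9645 bases. SLC6A9, a glycine transporter, and SLC43A1, a large neutral amino acid transporter, had estimates of 0.14 (SE 0.13) and 0.07 (SE 0.10), and of 0.12 and 0.14 without emetine replicate 3. Of the 10 carriers listed as linked to ATF4, 6 had estimates above 0 and 4 below, 0 passed the test, and their median was 0.060. Their median turned to -0.13 without emetine replicate 3, with 4 above 0 and 6 below, and SLC3A2 passed as higher and SLC7A5 as lower. ATF4 mRNA itself stood at 856 CPM in untreated and 872 CPM in emetine cells (log2 fold change 0.03, edgeR adjusted p = 0.915), and its estimate was 0.15 (edgeR adjusted p = 0.116) without emetine replicate 3.

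Of the 13 tested carriers of sugars and sodium-coupled solutes, 4 had estimates above 0 and 9 below, or 5 and 8 without emetine replicate 3. SLC2A1 stood at 95.9, 94.95 and 104 CPM in untreated and at 81.0, 87.6 and 80.8 CPM in emetine libraries, which did not overlap (-0.24, SE 0.08, edgeR adjusted p = 0.174). Without emetine replicate 3 it was -0.21 (SE 0.06, edgeR adjusted p = 0.0389), and with the trend removed -0.29 (edgeR adjusted p = 0.0247). SLC2A13, a proton and myo-inositol carrier, had 6.78, 6.13 and 7.22 CPM against 8.85, 7.44 and 13.4 CPM (0.56, SE 0.22, edgeR adjusted p = 0.201), and an estimate of 0.29 without emetine replicate 3. SLC2A10 and SLC2A3, further SLC2 carriers, were under 3 CPM in every library, and their groups overlapped (0.38, SE 0.28, and -0.32, SE 0.25). Their estimates were 0.15 and -0.48 without emetine replicate 3. SLC2A3 can share reads with its near copy SLC2A14, which had 5 reads over the 6 libraries. SLC5A6 stood at 197 ± 13 CPM in untreated and 175 ± 7 CPM in emetine cells (SD, n = 3 each), with estimates of -0.17 (SE 0.09) and, without emetine replicate 3, -0.14.

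Of the 20 carriers of bicarbonate, protons and chloride, 15 had estimates above 0 and 5 below, with a median of 0.17. With emetine replicate 3 left out, 11 lay above 0 and 9 below, with a median of 0.063. SLC4A7 had 9.93, 9.68 and 9.87 CPM in untreated and 12.5, 12.98 and 25.7 CPM in emetine libraries. All emetine libraries were higher, replicate 3 by far the most, and the log2 fold change was 0.79 (SE 0.26, edgeR adjusted p = 0.158), or 0.38 (SE 0.11, edgeR adjusted p = 0.0316) without it. By DESeq2 it was 0.77 (DESeq2 adjusted p = 0.0451), and with the trend removed 0.48 (edgeR adjusted p = 0.0777). SLC9A8 had 19.2, 17.6 and 18.0 CPM against 22.4, 22.5 and 25.9 CPM, again without overlap. Its log2 fold change was 0.37 (SE 0.11, edgeR adjusted p = 0.124), or 0.30 (SE 0.09, edgeR adjusted p = 0.0364) without that library.

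Other members of this class were less clear. SLC4A2 stood at 212 ± 11 and 191 ± 13 CPM (SD, n = 3 each), with groups that overlapped (-0.15, SE 0.09), and at -0.20 (SE 0.06, edgeR adjusted p = 0.0366) without emetine replicate 3. With the trend removed it stood at -0.22 (edgeR adjusted p = 0.0453). SLC4A4, a sodium bicarbonate cotransporter, had 3.30, 2.98 and 3.11 CPM against 3.60, 3.32 and 6.005 CPM (0.45, SE 0.25), and its estimate was 0.15 without emetine replicate 3. SLC9A9, an endosomal exchanger, and SLC12A5 (KCC2), the neuronal potassium and chloride cotransporter, were at or under 2.00 CPM in every library (0.39, SE 0.26, and -0.37, SE 0.28), with estimates of 0.43 and -0.39 without emetine replicate 3. SLC12A9 stood at 59.5 ± 5.1 and 52.6 ± 1.3 CPM (SD, n = 3 each), with estimates of -0.18 (SE 0.09) and, without emetine replicate 3, -0.15.

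Of the 8 tested SLC16 members, 1 had an estimate above 0 and 7 below, or 2 and 6 without emetine replicate 3. SLC16A1 stood at 351, 357 and 353 CPM in untreated and at 294, 297 and 365 CPM in emetine libraries. Emetine replicates 1 and 2 lay well below the narrow untreated range and replicate 3 above it, so the log2 fold change was -0.15 (SE 0.11, edgeR adjusted p = 0.407) with and -0.25 (SE 0.05, edgeR adjusted p = 0.00719) without that library. With the trend removed it was -0.32 (edgeR adjusted p = 0.0157). BSG, the chaperone of the monocarboxylate carriers and no SLC16 member, stood at 938 and 747 CPM (-0.33, edgeR adjusted p = 0.180), and without emetine replicate 3 it passed as lower (-0.23, edgeR adjusted p = 0.0328).

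Of the 11 tested metal carriers, 2 had estimates above 0 and 9 below, with a median of -0.14. All 11 lay below 0 without emetine replicate 3, again with a median of -0.14. As the share of all genes below 0 in that setting was not computed, this count is no trait particular to the class. SLC39A1 had 226, 249 and 226 CPM in untreated and 192, 202 and 179 CPM in emetine libraries, which did not overlap (-0.29, SE 0.09, edgeR adjusted p = 0.140). Without emetine replicate 3 it was -0.24 (SE 0.06, edgeR adjusted p = 0.0196), by DESeq2 -0.31 (DESeq2 adjusted p = 0.0279), and with the trend removed -0.21 (edgeR adjusted p = 0.0583). SLC39A4, the intestinal zinc importer, had 34.0, 30.9 and 38.5 CPM against 32.7, 27.7 and 18.8 CPM, and the groups overlapped (-0.38, SE 0.19, and -0.18 without emetine replicate 3). SLC39A6 stood at 129 ± 2 and 117 ± 18 CPM (SD, n = 3 each), with -0.14 (SE 0.11) and, without emetine replicate 3, -0.26 (SE 0.06, edgeR adjusted p = 0.00714). With the trend removed it was -0.29 (edgeR adjusted p = 0.0449). Among the 4 tested carriers of amines, GABA and creatine, SLC6A8 had 260, 256 and 267 CPM against 231, 244 and 218 CPM (-0.17, SE 0.09, and -0.13 without emetine replicate 3). SLC6A16 was under 3 CPM throughout with overlapping groups (-0.38, SE 0.49, and -0.55 without emetine replicate 3).

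Transcript length moved with the estimates. Over the 81 members the Spearman rho between log2 fold change and transcript length was 0.36, and 0.47 over 12695 genes. Without emetine replicate 3 it was 0.11 over 80 members and 0.19 over all genes, while without emetine replicate 1 or 2 it was 0.44 and 0.51 over 80 members. The untreated half-life and the log2 fold change had a rho of -0.44 over 63 members and -0.64 over all genes, and both values rest on the same untreated libraries.

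**Figure D4:**
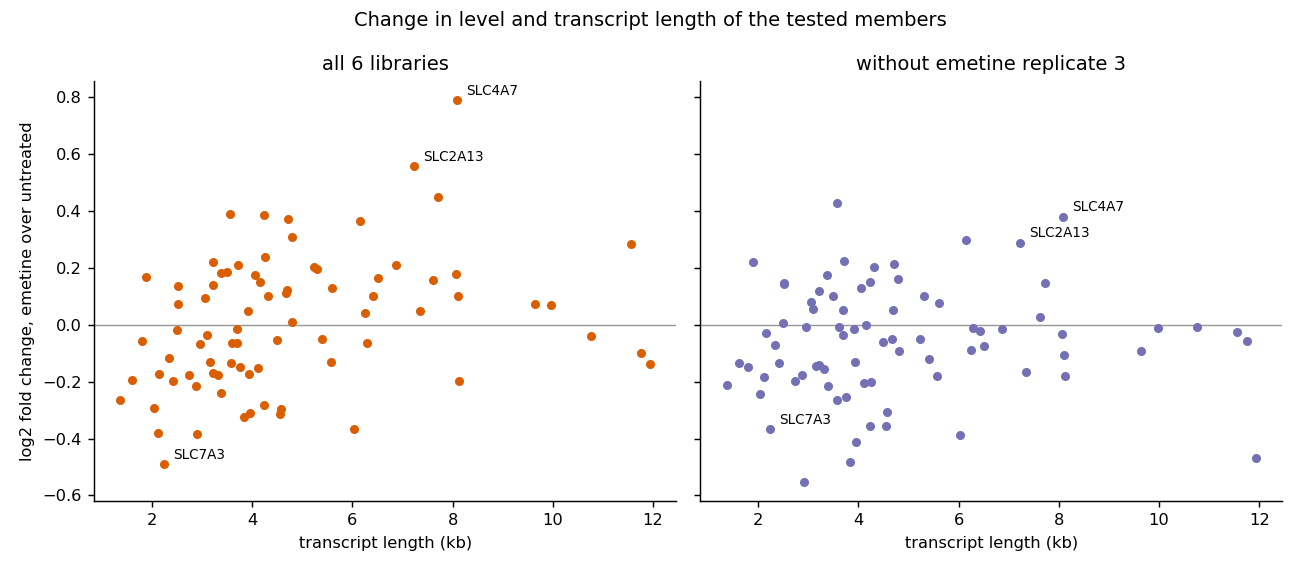
Log2 fold change of level, emetine over untreated, against transcript length in kb for the tested members, at left with all 6 libraries (79 members) and at right without emetine replicate 3 (78 members). At left the members over 7 kb include the largest estimates, SLC4A7 at 0.79 and SLC2A13 at 0.56, and at right the spread over length is flatter (rho 0.36 over all 81 and 0.11 over all 80 tested members).

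The libraries without s4U offer 1 untreated and 1 emetine library, which allow no test. Of the 63 members with at least 100 reads in both, 48 were lower in the emetine library, with a median log2 ratio of -0.12, and 43 had the same direction as in the s4U libraries. The shares of all genes in these 2 counts were not computed. The members' log2 ratio without s4U and log2 fold change with s4U had a Spearman rho of 0.051, against 0.34 over 11077 genes. Without emetine replicate 3 it was 0.26 for the members and 0.47 over those genes. SLC7A5 went from 307 to 236 CPM, SLC2A1 from 103 to 83.9 CPM and SLC3A2 from 285 to 329 CPM, the directions seen with s4U. SLC9A8 went from 19.7 to 26.1 CPM, also as with s4U. SLC4A7 went from 15.6 to 8.87 CPM, SLC2A13 from 8.57 to 5.32 CPM and SLC38A2 from 116 to 87.7 CPM, opposite to the s4U libraries. Over these members the rho between the log2 ratio without s4U and transcript length was -0.35, against 0.009 over 10376 genes.

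The fraction new asks whether emetine shifted the balance of new and old RNA. By limma on the logit of the fraction new, 0 of the 63 members passed an adjusted p of 0.05, where 0.214% of all 10763 genes were called higher and 4.83% lower. At an unadjusted p under 0.05, 0 were higher and 6 lower, and the shares of all genes at that threshold were not computed. Estimates were below 0 for 50 members and above 0 for 13, with a median of -0.163, against -0.160 over all genes, of which 75.6% lay below 0. All 11 metal carriers had estimates below 0, as did 11 of the 13 carriers of bicarbonate, protons and chloride and 18 of the 24 amino acid carriers. SLC3A2 had 28.2, 36.3 and 42.8% new reads in untreated and 25.0, 26.3 and 25.8% in emetine libraries, which did not overlap (logit change -0.47, SE 0.22, limma adjusted p = 0.246). SLC7A11 had 11.4, 18.1 and 19.9% against 13.9, 11.9 and 5.67%, the smallest adjusted p of the members (-0.56, SE 0.23, limma adjusted p = 0.183), with groups that overlapped. SLC38A2 had 26.5, 37.8 and 45.8% against 35.5, 33.5 and 34.9% (-0.07, SE 0.22, limma adjusted p = 0.930).

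The untreated libraries differed in labeling, and this moved with the calls. The median fraction new of the members was 8.70, 11.1 and 12.8% in the 3 untreated libraries and 9.65, 9.57 and 9.01% in the 3 emetine libraries. Without untreated replicate 1, which had the lowest value, 5 members passed as lower (SLC1A3, SLC1A5, SLC3A2, SLC5A3 and SLC39A1), where 23.5% of all genes did. SLC1A3, a glutamate transporter, and SLC5A3, a myo-inositol carrier whose gene overlaps MRPS6 on the same strand, are outside the rule for named genes and were named after their calls were seen.

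**Figure D5:**
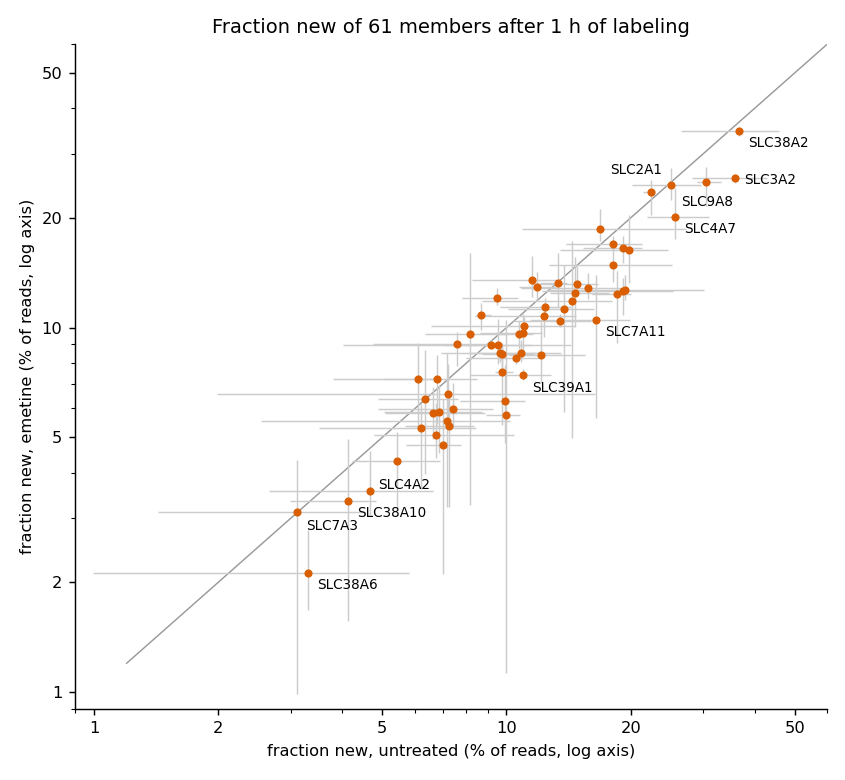
Fraction new in percent of reads (log axes) of 61 members in untreated against emetine libraries, with points for means of 3 and gray lines for the range over 3 libraries, and a diagonal of equal values. Of all 63 members, 50 lie below the diagonal by the logit estimate, and the untreated range of most members reaches it.

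Splitting each level by the fraction new gives the unlabeled reads, from RNA made before emetine was added, and the labeled reads, made during it. In unlabeled reads 0 of 63 members passed limma's test, where 7.3% of all genes were called higher and 0.0929% lower. At an unadjusted p under 0.05, 3 were higher and 5 lower, again without computed shares of all genes. The smallest adjusted p was that of SLC3A2, whose unlabeled reads had a log2 change of 0.38 (limma adjusted p = 0.0799), followed by SLC9A8 at 0.46 (limma adjusted p = 0.07996) and SLC7A5 at -0.30 (limma adjusted p = 0.0931). SLC4A7 had 0.78 (limma adjusted p = 0.122).

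In labeled reads 1 of 63 members passed, where 0.26% of all genes were called higher and 0.632% lower. SLC39A1 (chr1:153959099-153968184) had 18.4, 29.7 and 28.9 labeled CPM in untreated and 13.95, 14.5 and 13.8 labeled CPM in emetine libraries. Every emetine library lay below every untreated one, and labeled reads fell by 0.81 on the log2 scale (SE 0.23, limma adjusted p = 0.0427). Its fraction new was 8.16, 11.9 and 12.8% against 7.27, 7.20 and 7.70% (logit change -0.42, SE 0.22, limma adjusted p = 0.322). The call held with pseudocounts of 0.1 and 2 CPM (limma adjusted p = 0.0411 and 0.0452). It was lost without any 1 of 5 libraries (limma adjusted p = 0.145 to 0.816) and kept without untreated replicate 1 (limma adjusted p = 0.000373), where 9 members passed as lower and 16.1% of all genes did. SLC39A1 overlaps CREB3L4 on the opposite strand, whose 2017 reads over 6 libraries are few beside it, and the strand setting of the counting is not given in the sources used here. SLC1A5 (-0.56, limma adjusted p = 0.189) and SLC7A5 (-0.47, limma adjusted p = 0.351) also had estimates below 0 in labeled reads.

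Beside the carriers, 26 genes that bind, traffic or regulate them were listed, and all were tested. In level 3 passed as higher and 0 as lower, where 2.64% of all genes tested were called higher and 0.0436% lower. In fraction new 1 passed as higher and 3 as lower, where 0.214% of all genes were called higher and 4.83% lower. In level without emetine replicate 3, 6 passed as higher (TXNIP, ARRDC2, ARRDC3, ARRDC4, DDIT3 and NFE2L2), and BSG and ATP1B3 were among those that passed as lower. In that setting 10.1% of all genes were called higher and 3.87% lower. TXNIP, an arrestin that promotes endocytosis of SLC2A1, rose from 27.9 to 114 CPM (log2 fold change 2.03, edgeR adjusted p = 5.46e-05), and its fraction new rose from 92.5 to 97.5% (limma adjusted p = 0.0122). The related arrestins ARRDC3 and ARRDC4 rose from 5.83 to 12.8 CPM (1.13, edgeR adjusted p = 0.0209) and from 19.7 to 33.0 CPM (0.74, edgeR adjusted p = 0.0447). Fraction new fell for CHAC1, a glutathione-degrading enzyme and ATF4 target, from 70.6 to 40.9% (limma adjusted p = 0.000304), for DDIT3 (CHOP) from 76.8 to 51.6% (limma adjusted p = 0.00198), and for NFE2L2 (NRF2), a regulator of SLC7A11, from 31.3 to 18.0% (limma adjusted p = 0.0283). Of these, the level calls of ARRDC3 and ARRDC4 and the fraction new calls of TXNIP, DDIT3 and NFE2L2 were each lost without 1 or more single libraries, while the level call of TXNIP and the fraction new call of CHAC1 held without any 1 library.

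At 2 h, 58 of the 127 members were among the 9982 genes of the authors' table. Their mean normalised read count over all 2 h libraries, as given by the authors, had a Spearman rho of 0.65 with the untreated level at 1 h.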

How the data were processed

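Libraries of HEK-293T RNA were trimmed with cutadapt, aligned to hg38 with hisat-3n allowing T-to-C changes and passed through bam2bakR by the authors, who deposited counts of reads per gene, T content and T-to-C conversions for the 1 h libraries. The gene annotation and the strand setting are not given in the sources used here. Members that overlap another gene may therefore share reads with it. Among named members these include SLC12A9 with EPHB4 (10427 and 15596 reads over 6 libraries) and SLC5A6 with ATRAID (34536 and 18898 reads), both on opposite strands. For 2 h, the authors deposited a signal, the mean count after division by spike-in size factors, beside fold changes, errors, statistics and p-values of their own comparisons, which were not used, and a table of spike-in size factors was not used either. Reads assigned to no gene (17.1 to 18.3% of each library) and spike-in reads were left out of library sizes.

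Here, counts were summed per gene. CPM are counts per 1000000 gene reads with TMM scaling over the 6 s4U libraries, and over all 8 where the libraries without s4U are quoted. For each gene in each library, maximum likelihood gave the fraction new as the weight of 1 of 2 binomials in a mixture, with a conversion rate of 8.49 to 9.53% per T in new reads and a background of 0.0504% (untreated) or 0.0521% (emetine) from the library without s4U. This stands in for bakR, which was not installed. Half-life is -ln(2) × 1 h / ln(1 - fraction new). Level was tested with edgeR 4.0.16 (quasi-likelihood, over 100 counts in total over the 6 libraries). The logit of the fraction new (bounded at 0.001 and 0.999) and log2 of labeled and unlabeled CPM plus a pseudocount of 0.5 were tested with limma 3.58.1 over genes that had 100 reads or more in every one of these libraries. All tests compared 3 emetine with 3 untreated libraries and were adjusted by Benjamini-Hochberg over all genes tested, with calls at an adjusted p under 0.05 and any fold. The 22246279 to 40018063 gene reads per library limit the precision, and 3 reads are taken as the floor. Positions and transcript lengths come from GENCODE 44, in which 17147 of 19222 genes, all 127 members included, matched by symbol.

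The tests were tested on simulated data. Of 200 genes with the logit fraction new changed by 1, 44.5% were recovered among 10763. Alternatives covered scaling, DESeq2 1.42.0, low-count filters, a trend on length and GC content, pseudocounts, centering, a common conversion rate, a replicate block and leaving out each library. Members named were those called in any test, the one with the highest CPM in each of 13 families, the 5 shortest and 5 longest half-lives, the 5 largest rises and falls of the level estimate, and the tested carriers linked to ATF4. Some genes that this rule names are not reported here and are left out of the figures. The members and lists were chosen with earlier results of these data known.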

Additional observations from a re-analysis of the deposited data

How the results depend on the processing

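In level, 0 members were called with all 6 libraries under RLE size factors, spike-in scaling, no filter on low counts and the replicate block. DESeq2 gave 1 higher and 3 lower, and removing the trend on length and GC content gave 1 higher and 14 lower. Leaving out 1 library gave 0 to 3 higher and 0 to 8 lower, and every one of these calls came without emetine replicate 3. In fraction new, centering on each library's median gave 1 higher (SLC2A8) and 1 lower (SLC3A2). Over all 10763 genes it gave 126 higher and 748 lower. Leaving out 1 library gave 0 to 1 higher (SLC12A4) and 0 to 5 lower. SLC12A4 was called without untreated replicate 3, where 14 of all genes were called higher. The 5 came without untreated replicate 1, where 23.5% of all genes were called lower. In unlabeled reads, leaving out 1 library gave 0 to 2 higher and 0 to 6 lower, the calls again coming without emetine replicate 3. In that setting 1474 of all 10763 genes were called higher and 383 lower. In labeled reads, leaving out 1 library gave 0 to 9 lower. The 9 came without untreated replicate 1, where 16.1% of all genes were called lower. The cause was not tested. The median half-life of the members ran from 5.37 to 6.55 h with 1 untreated library left out, and was 6.10 h at a minimum of 50 reads and 6.08 h with a common conversion rate. Members outside the rule for named genes were named after their calls were seen.

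Under the main and the spike-in scaling alike, 38 members lay above and 43 below the median of all genes. This split was all but fixed in advance, since a change of scaling moves all genes by nearly the same amount. Spike-in scaling moved the median log2 fold change of all genes by 0.68, from 0.030 to 0.71. Spike-in reads made up 0.304, 0.666 and 0.408% of the emetine libraries and 0.667, 0.480 and 0.728% of the untreated ones. The spike-in scale thus rests on shares that differed within each group, and 0 members were called with it. On that scale the named members whose estimate turned from below to above 0 were SLC1A4 (0.38), SLC1A5 (0.45), SLC2A1 (0.43), SLC2A3 (0.37), SLC4A2 (0.52), SLC5A6 (0.48), SLC6A8 (0.50), SLC6A16 (0.42), SLC7A3 (0.19), SLC7A5 (0.36), SLC12A5 (0.38), SLC12A9 (0.48), SLC16A1 (0.54), SLC38A6 (0.45), SLC38A10 (0.63), SLC39A1 (0.36) and SLC39A4 (0.33). Among the members named by the rule, removing the trend on length and GC content turned SLC7A1 (-0.13), SLC7A11 (-0.21) and SLC38A1 (-0.16) below 0, and members outside the rule, such as SLC6A15 (-0.21), also turned. With centering, the logit change turned above 0 among named members for SLC2A1 (0.11), SLC5A6 (0.0067), SLC6A8 (0.12), SLC7A1 (0.058), SLC7A3 (0.047), SLC7A5 (0.0010), SLC16A1 (0.018) and SLC38A2 (0.052).

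With 1 library left out, log2 fold changes of level that changed sign among named members ran from -0.79 to 0.32 for SLC6A16, -0.17 to 0.16 for SLC7A1, -0.092 to 0.16 for SLC7A11, -0.11 to 0.20 for SLC38A1 and -0.011 to 0.14 for SLC43A1. Logit changes in fraction new that changed sign among them ran from -0.15 to 0.11 for SLC2A1, -0.0082 to 0.55 for SLC2A13, -0.25 to 0.053 for SLC5A6, -0.14 to 0.12 for SLC6A8, -0.22 to 0.038 for SLC7A1, -0.42 to 0.41 for SLC7A3, -0.27 to 0.0495 for SLC16A1, -0.30 to 0.12 for SLC38A2, -0.75 to 0.16 for SLC38A6, -0.56 to 0.035 for SLC38A10 and -0.40 to 0.022 for SLC43A1.

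Whether the replicate numbers of the labels pair the libraries is not known. Deviations of same-numbered libraries correlated at 0.082, -0.0019 and -0.14 in level and at 0.056, 0.0025 and 0.022 in logit fraction new. For differently numbered libraries they ran from -0.217 to 0.124 and from -0.044 to 0.019. These values cannot show whether libraries were prepared as pairs. With the replicate block, 0 members were called in level, 1 as lower in fraction new (SLC16A7), 0 in unlabeled reads and 1 as lower in labeled reads. Over all genes the block gave 75 higher and 3 lower in level, against 363 and 6 without it. In fraction new it gave 40 higher and 647 lower of all 10763 genes, and in labeled reads 26 higher and 71 lower.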
